A study of Mus musculus with 9 samples.

Results

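Nptx1 and Neo1 are 2 of the 471 genes in the table that sets the compound MGH-CP1 against vehicle in EHE17 cells, and 2 of its 211 protein-coding genes. They were selected on their levels in this contrast, both being higher with MGH-CP1, and then taken by gene name. Their levels are therefore given as a description with no test. EHE17 is a mouse endothelial tumour cell line whose genotype is labelled TC+/+ Cdkn2a -/-, and all groups carry it. TC is read here, from general knowledge of lines of this name, as the TAZ-CAMTA1 fusion allele of epithelioid hemangioendothelioma. MGH-CP1, an inhibitor of the palmitoylation of TEAD transcription factors, was given at 10 µM for 16 h, and the kinase inhibitor dinaciclib at 300 nM for 16 h. Vehicle cells received DMSO. Each group had 3 biological replicates of the 1 line, and the labels do not say whether these were separate cultures, so the spread may be technical. Neither gene was among the 251 genes of the dinaciclib table, and their levels with dinaciclib were not analysed here. By its name that table is limited to cancer-annotated genes. Absence from it is therefore not read as a lack of change with dinaciclib.

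Nptx1 encodes neuronal pentraxin 1, a secreted protein known from synapses, where neuronal pentraxins gather AMPA-type glutamate receptors. Neo1 encodes neogenin, a cell-surface receptor of the immunoglobulin superfamily related to the netrin receptor DCC. Neogenin binds netrins and repulsive guidance molecules (RGMs), acts in axon guidance and cell adhesion, and with RGMs takes part in bone morphogenetic protein signalling. Both are best known from the nervous system, but neither gene is confined to neurons.

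The libraries held 19934012 to 24310817 counts with MGH-CP1 and 31852117 to 40020833 counts in vehicle. The table lists only genes the authors picked for a change: in the authors' deposited table the largest adjusted p is 0.04998 and the smallest log2 fold change, regardless of sign, is 1.0006. A gene that is not listed has no value here. The share of all expressed genes that the table holds was not worked out. Counts of listed members, 0 included, are therefore given without a reading. Levels are normalised counts (read counts divided by the authors' size factor for the library) or, for comparing genes with each other, FPKM (counts scaled to gene length and library total). Of 20 endothelial markers, Vwf alone was in the MGH-CP1 table, while Kdr, the main VEGF receptor gene, stood at 92.3, 91.5 and 87.0 FPKM in the vehicle libraries of the dinaciclib table.

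Nptx1 was the gene with the larger difference. Its normalised counts were 805, 729 and 610 in the MGH-CP1 libraries, against 113, 149 and 133 in the vehicle libraries. All MGH-CP1 libraries lay above all vehicle libraries, and the lowest of them was 4.08 times the highest vehicle library. Every other gene of the table whose levels are given here for both groups also showed no overlap in normalised counts. The genes were picked for change on these libraries, and the share without overlap over the whole table was not counted. Nothing is read from a lack of overlap here or below. The means were 715 ± 98.5 with MGH-CP1 and 132 ± 18.3 in vehicle (SD, n = 3 each), a 5.42-fold ratio or 2.44 on the log2 scale, with a standard error of 0.166 from the replicate spread. Across the 9 pairs of a treated and a vehicle library the ratio ran between 4.08 and 7.13. The raw counts behind these levels were 695, 516 and 513 with MGH-CP1 and 128, 182 and 191 in vehicle, so Nptx1 was read more often with MGH-CP1 although those libraries were smaller.

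Neo1 was the more abundant gene and differed less. Its normalised counts were 2489, 2394 and 2376 in the MGH-CP1 libraries, against 1284, 1145 and 1161 in the vehicle libraries. The groups did not overlap here either, and the lowest MGH-CP1 library was 1.85 times the highest vehicle library. The means were 2420 ± 60.4 with MGH-CP1 and 1197 ± 76.3 in vehicle (SD, n = 3 each), a 2.02-fold ratio or 1.02 on the log2 scale, with a standard error of 0.0562 from the replicate spread. The raw counts were 2148, 1695 and 1999 with MGH-CP1 and 1456, 1394 and 1664 in vehicle; without division by the size factors the groups nearly meet, the lowest treated count being 1.02 times the highest vehicle count. Both genes passed the low-count filter and were higher, and 2 of 2 were called by edgeR at the threshold of 0.05. The share called was 100% of the 355 genes tested and 100% of the 187 coding genes tested, with 49.3% of all and 46% of the coding genes called higher, and nothing is read from the count. The log2 changes given below for other genes come from this same fit on genes picked for change. Its adjusted p-values are no error rates and no independent evidence, and are not given gene by gene. In bulk RNA, more cells with a transcript and more transcript per cell cannot be told apart.

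**Figure D1:**
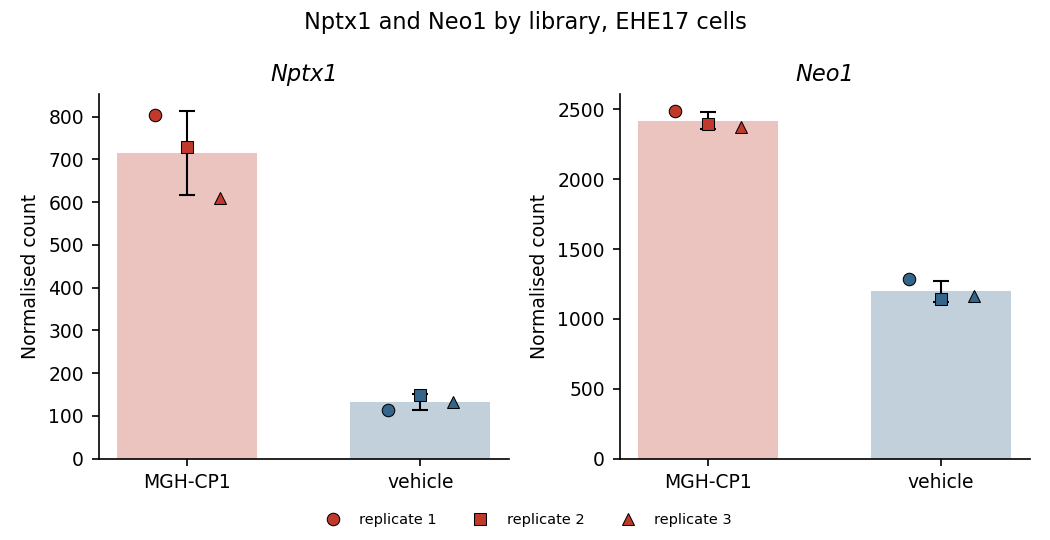
Normalised counts of Nptx1 (left) and Neo1 (right) in each library, with MGH-CP1 left of vehicle in each panel; bars are group means, error bars SD (n = 3) and symbols replicates. Nptx1 averaged 715 with MGH-CP1 and 132 in vehicle, and Neo1 averaged 2420 with MGH-CP1 and 1197 in vehicle. The groups did not overlap for either gene, in a table of genes picked for change.

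Replicate spread was set beside counting error. The coefficient of variation of Neo1 was 2.5% with MGH-CP1 and 6.38% in vehicle, where counting error alone gives 2.28% and 2.59% in the same 2 groups. For Nptx1 it was 13.8% with MGH-CP1 and 13.9% in vehicle, where counting error alone gives 4.21% and 7.86%. The spread was thus wider than counting error for Nptx1 in both groups and for Neo1 in vehicle, and close to it for Neo1 with MGH-CP1, each from 3 libraries. Among the 92 coding genes of the table with a mean of at least 50 normalised counts, counted from the lowest variation, Neo1 had rank 2 with MGH-CP1 and 23 in vehicle, and Nptx1 rank 43 with MGH-CP1 and 61 in vehicle. The median variation of those genes was 14.3% with MGH-CP1 and 10.6% in vehicle.

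Per length, Nptx1 measured 5.48, 4.96 and 4.15 FPKM with MGH-CP1 and 0.770, 1.02 and 0.915 FPKM in vehicle. Neo1 measured 10.1, 9.76 and 9.69 FPKM with MGH-CP1 and 5.24, 4.68 and 4.77 FPKM in vehicle. Neo1 was therefore the higher of the pair in all 6 libraries. Its FPKM was 1.85, 1.97 and 2.33 times that of Nptx1 in the MGH-CP1 libraries and 6.81, 4.58 and 5.21 times in the vehicle libraries. This ratio is taken inside each library and does not depend on how the libraries are scaled. It was lower in every MGH-CP1 library than in any vehicle library. That follows from the larger difference of Nptx1, in genes picked for change on these libraries, and is no further result.

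Among the 102 coding genes that were higher with MGH-CP1 in the authors' deposited table, Nptx1 had rank 20 by ratio of means and Neo1 rank 97. Many of the genes with larger ratios had few counts: of the 39 such genes with a mean of at least 50 normalised counts, Nptx1 had rank 2, after Gm21887 (6.41-fold) and before the stress cytokine gene Gdf15 (4.68-fold). Neo1 had rank 35 among those 39, next to the iron exporter gene Slc40a1 and the leukotriene synthase gene Ltc4s, both 2.02-fold. The authors' deposited log2 fold change of Neo1 was 1.017, close to the smallest listed value, and genes just outside that limit have no values here. By FPKM, among the 211 coding genes of the table, Neo1 had rank 17 with MGH-CP1 and 31 in vehicle, and Nptx1 rank 23 with MGH-CP1 and 78 in vehicle.

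**Figure D2:**
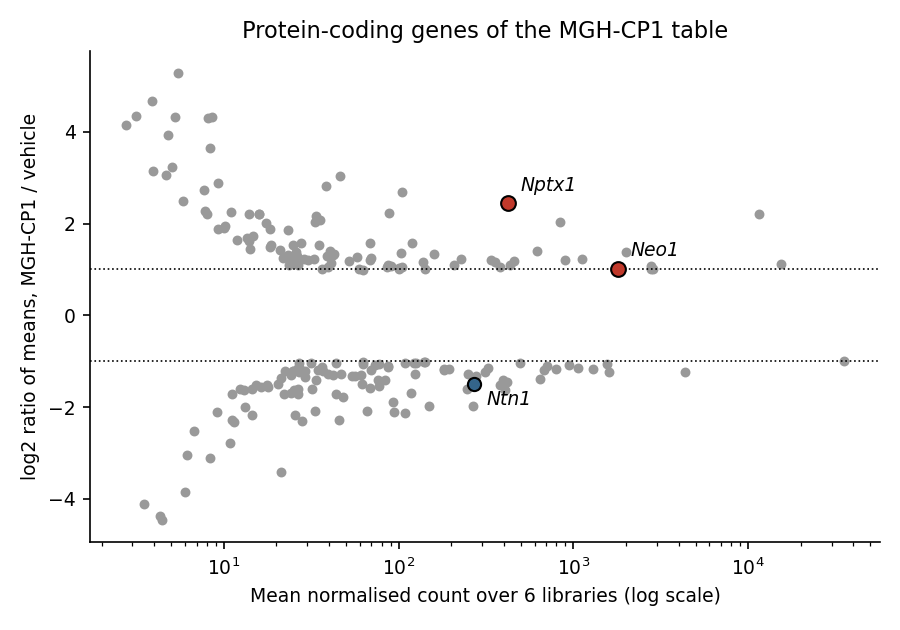
Each point is a protein-coding gene of the table, with its mean normalised count over the 6 libraries (log axis) against the log2 ratio of group means, MGH-CP1 over vehicle; dotted lines mark a log2 ratio of 1 in either direction, and 2 of the 211 genes are left out because a group was at 0. Nptx1 stands at 2.44, Neo1 lies at the lower fold limit at 1.02, and the netrin gene Ntn1 (blue) lies on the lower side.

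Nptx1 (ENSMUSG00000025582) lies on chromosome 11 at 119538719 to 119547753 of GRCm38, on the minus strand, and GENCODE M21 gives it 1 transcript. Its exons add up to 5217 bases over a span of 9035 bases, and no annotated gene overlaps it. The noncoding gene Gm11762 starts 877 bases beyond its 5′ end on the other strand, and the next gene on the 3′ side is Endov, a DNA and RNA repair endonuclease gene, at 27282 bases. The nearest gene of the same table is C1qtnf1, a secreted C1q-family protein gene, 1.09 Mb away. It stood at 22.3 ± 1.32 normalised counts with MGH-CP1 and 51.6 ± 7.99 in vehicle (SD, n = 3 each), and was thus lower with MGH-CP1.

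Neo1 (ENSMUSG00000032340) lies on chromosome 9 at 58874687 to 59036441 of GRCm38, also on the minus strand. GENCODE M21 gives it 6 transcripts, 3 of them protein-coding, with exons that add up to 8716 bases over a span of 161755 bases. Gene counts do not separate these transcripts. The antisense gene Gm47271 (58979251 to 59033856) lies inside Neo1 but shares 0 exon bases with it. The libraries carry no strand mark, so spliced reads of the pair fall on separate exons, while unspliced antisense reads over a Neo1 exon would be counted with Neo1. The flanking genes are Hcn4, a pacemaker channel gene, at 11512 bases and the pseudogene Gm7589 at 109236 bases. Neither these nor the neighbours of Nptx1 were in the table.

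Promoter sequence was matched in RefSeq's table for 1 of the 2 genes, Neo1. It is shown because Neo1 was higher after an inhibitor of TEAD factors, and a TEAD core sequence was therefore looked for. The window runs from 250 bases before to 50 bases after the annotated start, chr9:59036392-59036691 of GRCm38.p6, and is written 5′ to 3′ on the minus strand, which is the strand of the gene. Capitals mark a CCAAT box and 2 GC boxes, all read on the opposite strand.

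Neo1: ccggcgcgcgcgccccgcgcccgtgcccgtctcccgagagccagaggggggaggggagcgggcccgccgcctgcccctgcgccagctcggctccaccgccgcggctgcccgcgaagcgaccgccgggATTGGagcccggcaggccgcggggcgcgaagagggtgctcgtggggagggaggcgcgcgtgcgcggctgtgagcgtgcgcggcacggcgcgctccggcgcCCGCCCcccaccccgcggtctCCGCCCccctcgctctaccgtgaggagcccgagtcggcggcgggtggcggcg

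The window is made up of G and C to 82.7%, against a median of 52.7% over 32851 RefSeq promoter windows of the same length, and holds 54 CG pairs against a median of 7. Motifs were searched on both strands. The TEAD core GGAATG had no match in the Neo1 window and a match in 14.7% of all windows. The AP-1 site TGANTCA (7.81% of windows), the CREB site TGACGTCA (1.79%) and both parts of the REST element, TCAGCACC (1.65%) and GGACAG (22.2%), had no match either. The CCAAT box, CCAAT, matched once, and 37.4% of windows hold one. The GC box GGGCGG matched at 2 places, and 35.7% of windows hold one. The last 2 motifs were added after the sequence had been read. No motif searched overlaps another in this window. Of all windows, 99.6% hold less G and C than the Neo1 window. The shares given are therefore no background matched for composition. The matches describe letters in a short window and say nothing of whether a factor binds there.

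Netrin 1, encoded by Ntn1, is the secreted guidance protein that neogenin and DCC bind, and its gene was in the table on the other side. Ntn1 had 148, 103 and 170 normalised counts with MGH-CP1, against 416, 398 and 380 in vehicle. All MGH-CP1 libraries lay below all vehicle libraries. Ntn1 fell 2.84-fold, with means of 140 ± 34.1 with MGH-CP1 and 398 ± 18.0 in vehicle (SD, n = 3 each). The FPKM of Neo1 was 12.1, 16.7 and 10.1 times that of Ntn1 in the MGH-CP1 libraries and 2.22, 2.07 and 2.20 times in the vehicle libraries. Neo1 thus exceeded Ntn1 per length in all 6 libraries. The ratio was larger in each MGH-CP1 library than in any vehicle library. That follows from the 2 genes being listed for changes in opposite directions and is no further result.

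Other genes of the netrin, pentraxin and related pathways were counted in the table. Of 203 genes on 9 lists of pentraxins and their partners, netrins, RGMs, netrin receptors and their signalling, bone morphogenetic proteins, semaphorins, Slits, ephrins and synapse organisers, other than Nptx1 and Neo1, 6 were in the table. All 6 could be tested with edgeR, with Benjamini-Hochberg adjustment over 355 genes, and 1 rose and 5 fell. That was against 49.3% higher and 50.7% lower over all 355, where no gene missed the threshold: the study's own selection used these very libraries, so passing is not independent evidence. The median log2 change of the 6 was -1.39, beside -1.01 over all tested genes and -1.04 over the tested coding genes. Nptx1 and Neo1, left out of the 6, were chosen for being higher, which tilts the remaining genes towards lower. Among pentraxins Nptx1 was the single listed gene of 9, and 0 of 8 neuronal pentraxin partners, AMPA receptor subunit genes among them, were in the table. None of 29 genes of the bone morphogenetic protein axis was. Nothing is read from these counts, because the share of all expressed genes that are listed was not worked out.

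Trim9, an E3 ubiquitin ligase of neurons known to bind the netrin receptor DCC, was near the limit of detection, at 7, 1 and 8 raw counts with MGH-CP1 and 20, 28 and 26 in vehicle. It fell by 1.56 on the log2 scale (edgeR). Without MGH-CP1 replicate 2 its log2 change was -1.14. In that library a single read stands for the gene.

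Guidance genes outside the netrin family were listed in both directions. Ephb1, a receptor for ephrin-B ligands, had 441, 397 and 500 normalised counts with MGH-CP1 and 1063, 925 and 900 in vehicle. It fell by 1.11 on the log2 scale (edgeR). Sema7a, a membrane-anchored semaphorin gene, had 160, 129 and 147 normalised counts with MGH-CP1 and 360, 321 and 376 in vehicle. It fell by 1.28 on the log2 scale (edgeR). Sema7a is also the gene of the table nearest to Neo1, 0.912 Mb away on chromosome 9, and was listed in the opposite direction. Sema3b, a secreted semaphorin gene, had 26.6, 32.5 and 23.8 normalised counts with MGH-CP1 and 7.94, 11.5 and 9.07 in vehicle. It rose by 1.52 on the log2 scale (edgeR).

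Of 46 synapse organiser and adhesion genes, Arc, the activity-regulated gene that tunes AMPA receptor uptake at synapses, was the one in the table. Arc had 115, 117 and 134 normalised counts with MGH-CP1, against 387, 359 and 375 in vehicle. The groups did not overlap, in a table of genes picked for change, and Arc fell by 1.61 on the log2 scale (edgeR).

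**Figure D3:**
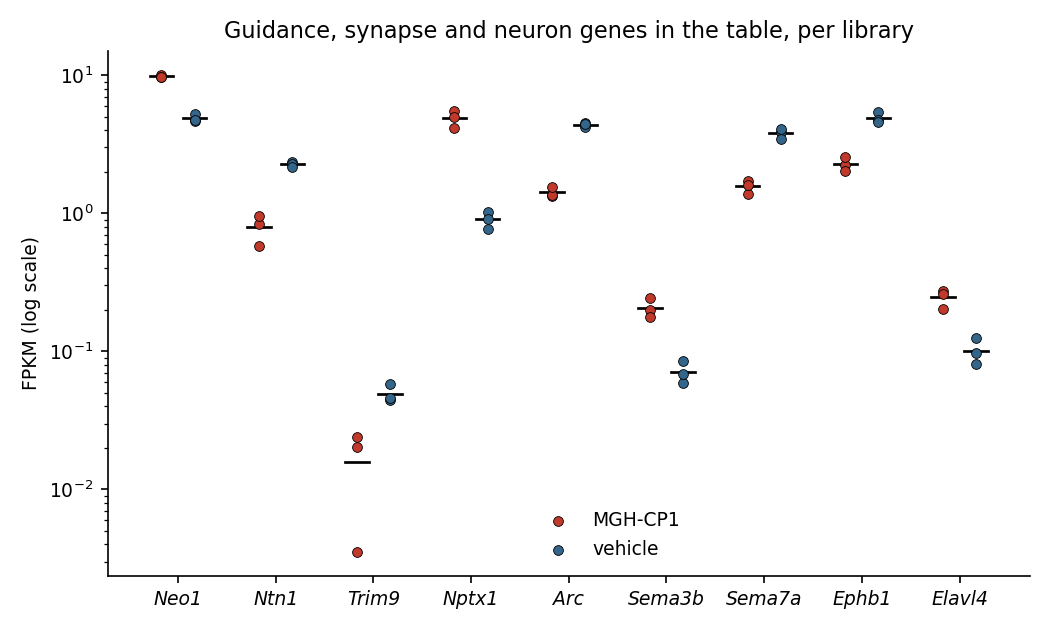
FPKM (log axis) of Neo1, Nptx1 and the guidance, synapse and neuron marker genes in the table; each point is a library, with MGH-CP1 (red) left of vehicle (blue) for each gene, and lines mark the arithmetic group means. Neo1, Nptx1, Sema3b and Elavl4 were higher with MGH-CP1, while Ntn1, Trim9, Arc, Sema7a and Ephb1 were lower. No gene's groups overlapped, in a table of genes picked for change.

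Neuron markers were looked up because both genes are best known from neurons. Of 24 neuron markers 1 was in the table: Elavl4, a neuronal RNA-binding protein gene, had 41.7, 39.6 and 30.9 normalised counts with MGH-CP1 and 12.3, 18.9 and 14.7 in vehicle. It rose by 1.28 on the log2 scale (edgeR), and averaged 0.246 ± 0.0376 FPKM with MGH-CP1 and 0.101 ± 0.0220 in vehicle (SD, n = 3 each). Per length, Nptx1 averaged 4.86 FPKM in the same MGH-CP1 libraries. The levels of the other markers were not analysed here. Of 13 glia markers, 13 fibroblast and mural markers and 9 epithelial markers, 0 were in the table, and nothing is read from these counts either.

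Markers of other cells and signs of RNA class were looked up as well. Any of them in the table was picked for change, so being listed is not read as a result. Of 14 macrophage and leukocyte markers, Cd68 was higher (54.8 ± 17.6 normalised counts with MGH-CP1 and 12.2 ± 5.08 in vehicle) and Lyz2 lower (92.8 ± 25.7 with MGH-CP1 and 187 ± 16.9 in vehicle), and their summed level was 138 to 154 with MGH-CP1 and 189 to 213 in vehicle. All of these and the 2 genes that follow passed the edgeR threshold, as did every gene tested. The endothelial gene Vwf was lower, at 14.3 to 31.1 normalised counts with MGH-CP1 and 60.0 to 77.2 in vehicle. Of 31 genes of YAP, TAZ and TEAD biology the matrix gene Ccdc80 was the one listed, at 45.7 ± 8.13 normalised counts with MGH-CP1 and 121 ± 3.81 in vehicle (SD, n = 3 each for these means). Of 10 genes that report on RNA class, 5 were in the table (Malat1, Rn7sk, CT010467.1, mt-Rnr1 and Lars2) and 5 were higher. Over all 355 tested genes 49.3% were called higher. Only genes picked for change are listed, so nothing is read from this count. These 5 genes took 0.739%, 0.981% and 0.445% of all counts with MGH-CP1 and 0.164%, 0.0871% and 0.0674% in vehicle. With their counts taken out of the library totals the log2 change was 2.44 for Nptx1 and 1.02 for Neo1, as with the authors' size factors. Their largest share was 0.981%, so this removal could hardly move the values. The part of RNA class or library quality in the levels of Nptx1 and Neo1 was not tested. The part of the cell markers in the levels of Nptx1 and Neo1 was not tested.

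Genes with a like pattern were found by the mean absolute difference between profiles of log2(normalised count + 1), each centred on its own mean, over the 6 libraries and 91 other coding genes with a mean of at least 50 normalised counts. For Nptx1 the likest were Aqp8, a water channel gene, at a mean difference of 0.245, the predicted gene Gm21887 at 0.373 and the organic anion transporter family gene Slco5a1 at 0.432. The median over the 91 genes was 1.74. Of the 92 coding genes at this level, Nptx1 and Neo1 included, 39 were higher with MGH-CP1. The median here, and that for Neo1 below, therefore rests on genes that were lower. Likeness in this table mostly sorts genes by the direction and size of the change they were picked for. Aqp8 had 1286, 1585 and 1176 normalised counts with MGH-CP1 and 322, 299 and 369 in vehicle. Its treated libraries also stood far above its vehicle libraries, at a 4.09-fold ratio of means.

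For Neo1 the likest were Esr1, the oestrogen receptor alpha gene, at a mean difference of 0.041, the polyamine enzyme gene Odc1 at 0.076 and the C-type lectin gene Clec9a at 0.079, where the median over the 91 genes was 1.03. Esr1 had 147, 145 and 130 normalised counts with MGH-CP1 and 74.1, 64.9 and 64.9 in vehicle. Its ratio of means was 2.07-fold, at a far lower abundance than Neo1. Nptx1 and Neo1 themselves differed by 0.706, which put Neo1 at rank 32 for Nptx1 and Nptx1 at rank 37 for Neo1. The pair shared a direction and differed in size.

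**Figure D4:**
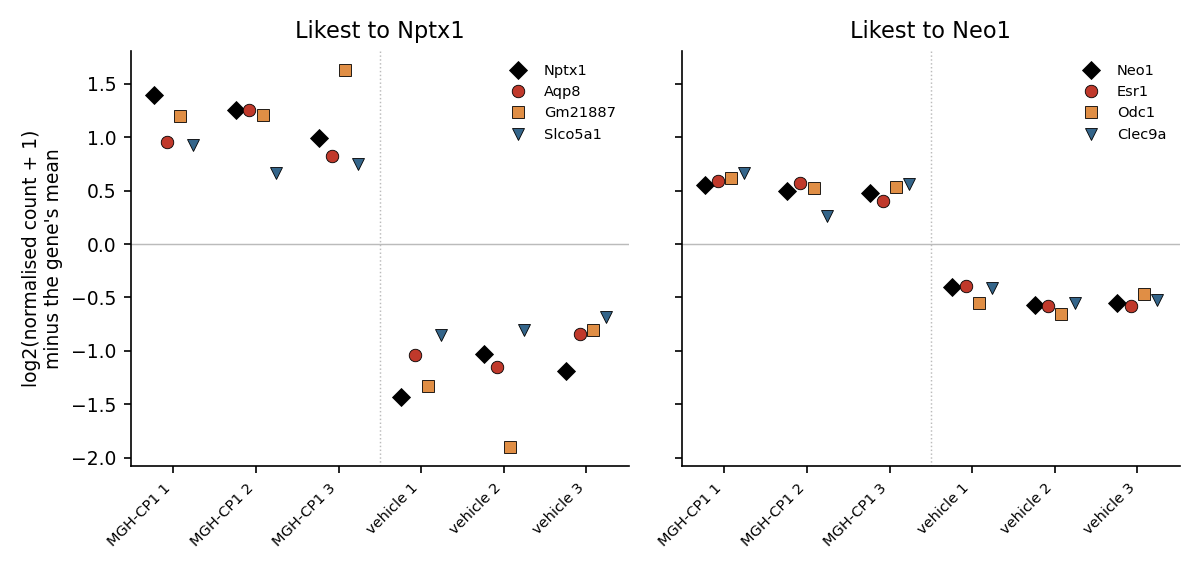
Profiles of Nptx1 (left) and Neo1 (right) with the 3 likest coding genes of each, as log2(normalised count + 1) minus the gene's mean over the 6 libraries; libraries with MGH-CP1 are left of the dotted line and vehicle libraries right of it, and each symbol is a gene. The profiles around Neo1 lie close together (mean differences of 0.041 to 0.079), those around Nptx1 are wider apart (0.245 to 0.432).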

How the data were processed

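Poly(A)-selected RNA was sequenced without strand marking, per the labels' protocols. The submitters' processing notes name fastp and HISAT2 2.0.5, with featureCounts 1.5.0-p3 for counting, and for testing DESeq2 1.20.0. The genome build is not given in the sources used here. All 471 gene identifiers are in GENCODE M21 (GRCm38), 464 of them (98.5%) with the same start and end. Per the file headers, the deposited table holds raw counts, FPKM, log2 fold changes and p-values; its other level columns hold, going by the values, the authors' normalised signal (count over size factor).

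Size factors were recovered as count over normalised count, and total counts from counts, FPKM and gene length. The fit used edgeR 4.0.16 (R 4.3.3), a quasi-likelihood test (two-sided) on the 6 libraries with the authors' size factors, filterByExpr (minimum count 10), Benjamini-Hochberg adjustment and a threshold of 0.05. It tested 355 of the 471 genes, all picked by the authors on these libraries, so its adjusted p is no error rate. On simulated data for these 355 genes, calls were made for 3.23% of the 155 with no change; recovery was 81% at a log2 of 1 and 99% at a log2 of 2, among 100 genes each. Standard errors of the 2 genes come from the replicate spread of log2 normalised counts. Replicate pairs differed by more than sampling noise (chi-square per degree of freedom 12.4 to 89.5).

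The genes, the 17 lists (337 genes) and the tests were chosen with earlier results of these data known. Named genes were Nptx1, Neo1, listed members of the lists, the 3 likest genes of each, the nearest listed gene and genome neighbours, with the next genes by ratio added. Alternatives were TMM factors, total counts, DESeq2 1.42.0, no count filter, FPKM, a replicate block and leaving out each replicate. Of the dinaciclib table, only its gene names and vehicle levels were used. Figures used matplotlib 3.10.9.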

Additional observations from a re-analysis of the deposited data

How the results depend on the processing

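Nptx1 and Neo1 were higher with MGH-CP1 under every alternative tried (TMM factors, total counts, total counts less 5 RNA class genes, DESeq2, the replicate block, FPKM at 2 pseudocounts, the authors' deposited log2 fold change and each replicate left out). Without 1 replicate the log2 change ran from 2.34 to 2.54 for Nptx1 and from 0.985 to 1.07 for Neo1, and 365 to 385 genes of the table passed out of 368 to 393 tested, against 355 of 355 with all replicates. The changes that exceeded the replicate spread were 1.62 for Nptx1 and 0.881 for Neo1 with FPKM and a pseudocount of 1, which compresses low levels by construction, and 1.15 for Neo1 with TMM factors, which shifted the median gene by 0.123 and gave 2.57 for Nptx1. With no count filter 471 genes passed. Replicate numbers showed no sign of pairing the samples (correlations of same-numbered deviations 0.03, -0.11 and 0.03 over 355 genes). Unlike-numbered deviations gave -0.12 to 0.11. With 3 libraries per group and genes picked for change, a pairing could be missed. With the replicate block 355 genes passed and the log2 changes were 2.43 for Nptx1 and 1.02 for Neo1. Removing RNA class counts was chosen after seeing the data, and could hardly move the values, because these genes took at most 0.981% of a library. Counting error limits Trim9, Sema3b and Elavl4, with 16, 66 and 90 counts over the MGH-CP1 libraries and 74, 36 and 58 over the vehicle libraries.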

Other observations

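Other genes of nervous-system name in the table were picked after their values were seen and are given as values alone. Receptor genes for transmitters and neuropeptides were listed in both directions. Htr2a, a serotonin receptor gene, had 26.6, 26.8 and 28.5 normalised counts with MGH-CP1 and 10.6, 6.57 and 11.9 in vehicle. Prokr2, a prokineticin receptor gene, had 138, 175 and 133 with MGH-CP1 and 59.1, 50.1 and 64.2 in vehicle, and P2rx2, an ATP-gated channel gene, 129, 96.1 and 132 with MGH-CP1 and 44.1, 59.9 and 62.8 in vehicle. Chrm3, a muscarinic receptor gene, and Hcrtr1, an orexin receptor gene, rested on 33 and 24 raw counts in all with MGH-CP1, against 8 and 7 in vehicle, and did not pass the low-count filter. P2rx1, of the same channel family as P2rx2, was lower, at 0, 8.48 and 2.38 normalised counts with MGH-CP1 and 33.5, 32.8 and 50.3 in vehicle. Grin2a, a glutamate receptor subunit gene, was also lower, at 18.5, 2.83 and 13.1 with MGH-CP1 and 35.3, 39.4 and 37.0 in vehicle.

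Nav2, a neuron navigator gene, averaged 593 ± 141 normalised counts with MGH-CP1 and 277 ± 31.7 in vehicle (SD, n = 3 each). Among genes that were lower, Cacng1, a calcium channel subunit gene of skeletal muscle, averaged 32.4 ± 11.1 with MGH-CP1 and 80.6 ± 25.6 in vehicle, and Tmem108, a membrane protein gene of neurons, 7.15 ± 3.23 with MGH-CP1 and 21.8 ± 8.86 in vehicle (SD, n = 3 each). No library of one group overlapped the other for these genes in normalised counts, in a table of genes picked for change.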
